A study of Mus musculus with 2 samples.

Results

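The ligands and receptors of the tumour necrosis factor (TNF) superfamilies were examined in skin tumours that ultraviolet B (UVB) light had induced in mice, on 1 array of wild-type and 1 array of P2ry6-/- tumour RNA. Members were the non-control probes named Tnf, Lta, Ltb, Ltbr, Cd40, Cd40lg, Cd27, Cd70, Fasl, Eda, Edar or Eda2r, or named Tnfsf or Tnfrsf followed by a digit, with Tnfrsf19 left out. The rule took 70 of 56605 probes and 42 of 37325 gene names. These were 17 ligand genes, 24 receptor genes and Tnfsf13os, an antisense RNA whose name the rule also takes. P2ry6 encodes a G protein-coupled receptor for the nucleotide UDP. The tumours came from male P2ry6+/+ or P2ry6-/- mice, out of 20 pairs in the study, aged 2 months when irradiation began. Animals of both genotypes received UVB at 180 mJ/cm2 over the first 10 weeks, then weekly steps of 10 mJ/cm2 to reach 300 mJ/cm2 at week 22, and that dose through week 40. The mouse strain, the deleted part of P2ry6 and the number of tumours or animals behind each RNA sample are not given in the sources used here.

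Ligands of the TNF superfamily are mostly trimeric membrane proteins, some of which are shed, and their receptors cluster on binding. Receptors with a death domain can start cell death through adaptors and caspase-8. Most others recruit TRAF proteins, which lead to NF-kappaB and stress kinases. In skin the superfamilies act in inflammation, in costimulation of lymphocytes, in survival or death of keratinocytes, and, through ectodysplasin, in the formation of hair follicles and glands.

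Each array is the single-colour kind, so every value below is a spot's fluorescence, in signal units, or its log2 level relative to the array's own 75th percentile (347 units with the wild-type label and 327 with the knockout label). A difference is always the knockout-labelled minus the wild-type-labelled level. The scanner software marked 57.8% and 57.9% of non-control spots as well above background and 0 as saturated. Each genotype has 1 array and so no replicate, no test could be run, and the number of arrays limits the precision. The technical SD of a difference was 0.12 for a single spot (293 probes with replicate spots) and 0.38 between probes of a gene (6731 genes). Where a member had 1 measured probe, the error given is the scanner software's own error for both spots. P2ry6 itself was 2.44-fold higher on the array labelled as its knockout (difference 1.29 ± 0.01, SD, n = 2 probes), against the label, so arrays are named by their labels and each direction rests on them. The epidermal origin was borne out on both arrays: all 8 basal keratinocyte markers looked up were well above background, among them Krt5 and Krt14. The summed signal of these markers was 1.33 times as high on the knockout-labelled array, that of 8 suprabasal markers 0.460 times and that of 8 sebaceous gland markers 0.0423 times. Of the basal markers Krt5 alone passed 2-fold (3.16-fold higher). Krt14 and Krt15 differed by 0.01 and 0.05, and 2, Itga6 (-0.16) and Col17a1 (-0.41), lay below 0.

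Of the 42 members, 27 were measured, meaning well above background on both arrays: 7 ligand genes, 19 receptor genes and Tnfsf13os. Edar, the ectodysplasin receptor, was at least 2-fold higher on the knockout-labelled array, and Tnfsf9, a costimulatory ligand, and Tnfsf13os were at least 2-fold lower. The share called, 11.1%, lay near the background, since 9.86% of all 19872 measured genes were at least 2-fold apart, 4.82% higher and 5.04% lower. Another 4 members were above background on 1 array alone and have only a bound. Of the 3 seen on the knockout-labelled array alone, Tnfsf14 and Tnfrsf26 had a bound of at least 2-fold and Lta did not. Over all genes 22.6% of those seen on that array alone had such a bound. The remaining 11 members, 7 ligands and 4 receptors, were not well above background on either array. The receptor genes had a median difference of 0.29 and the ligand genes of 0.12, beside -0.06 over all measured genes.

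Directions of small differences depended on the scale. On the main scale 15 of 19 receptor genes and 4 of 7 ligand genes lay above 0, whereas on a scale set by 8 spike-in control probes 6 and 1 did, with medians of -0.18 and -0.35. Of all 19872 measured genes, 8961 (45.1%) lay above 0 on the main scale and 3418 on the spike-in scale. That scale lowers every difference by 0.47 and takes the median of all measured genes to -0.53. It also takes the share of called genes that were higher from 48.9% to 8.97%. Relative to the median of all genes, the receptor median was 0.34 and the ligand median 0.18 on either scale, which a fixed shift cannot alter. These relative medians were 0.15 and 0.08 under normexp background correction and 0.29 and 0.06 under quantile normalization. Because directions depended on the scale, small differences are given as values and not as changes.

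**Figure D1:**
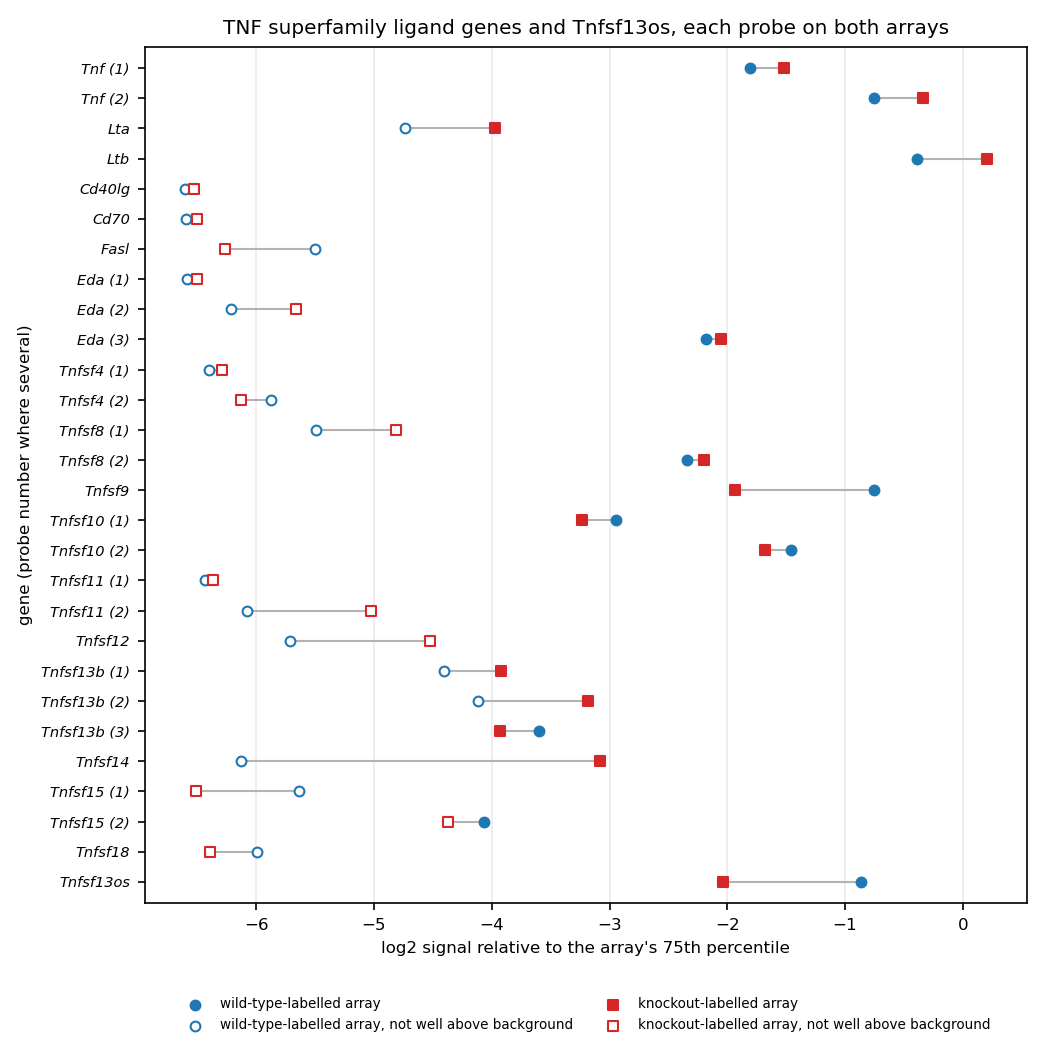
Log2 signal of each probe of the 17 ligand genes and Tnfsf13os relative to the array's 75th percentile, with circles for the wild-type-labelled array, squares for the knockout-labelled array and open symbols for spots not well above background. Tnfsf9 and Tnfsf13os sit lower on the knockout-labelled array, and Tnfsf14 is filled on that array only.

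Ligands of the TNF and lymphotoxin receptors came first by role. Tnf, the inflammatory cytokine of macrophages and other cells, went from 206 to 259 units at one probe and from 99.3 to 114 at the other. Both probes read a little higher with the knockout label, with a difference of 0.35 ± 0.10 (SD, n = 2 probes). Ltb, the membrane anchor of the lymphotoxin heterotrimer, read 264 and 377 units, a difference of 0.60 ± 0.21 (scanner error). On the spike-in scale Tnf came to -0.12 and Ltb to 0.13. Lta, the secreted partner of Ltb, cleared background only with the knockout label (13.0 and 20.9 units), a bound of at least 1.25-fold, which vanished on the spike-in scale. Tnfsf14, known as LIGHT, costimulates T cells. It read 4.95 units, not well above background, with the wild-type label and 38.6 units with the knockout label, at least 2.31-fold higher by the bound. That bound fell below 2-fold under normexp background correction (0.46 on the log2 scale) and on the spike-in scale (0.74).

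Among the receptors of these ligands, Tnfrsf1a and Ltbr lay near 0 and Tnfrsf14 and the probes of Tnfrsf1b did not. Tnfrsf1a, the death domain receptor of TNF on most cells, read 8802 and 402 units at its probes on the wild-type-labelled array and 8278 and 389 on the other. Its difference was 0.02 ± 0.03 (SD, n = 2 probes), within the technical spread. Ltbr, the lymphotoxin beta receptor, read 2505 and 2487 units, a difference of 0.07 ± 0.20 (scanner error). Tnfrsf14, a receptor of LIGHT, read 56.5 and 88.3 units, a difference of 0.73 ± 0.23 (scanner error), and a second probe of it was dim on both arrays. Tnfrsf1b, the TNF receptor without a death domain, gave opposite answers at its 2 probes. One, on the minus strand of chromosome 4 from 144804304 to 144804363 (mm9), went from 94.1 to 227 units, 2.56-fold higher, and the other, from 144833903 to 144833961, from 548 to 310 units, 1.67-fold lower. The mean, 0.31 ± 1.48 (SD, n = 2 probes), therefore stands for neither, and by the brighter probe alone it was -0.74. The probe that read higher with the knockout label was matched to Tnfrsf1b through RefSeq, and the brighter probe was not. Gene annotation of mm9 was not used here.

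Macrophages and dendritic cells are known sources of Tnf, Tnfrsf1b and Tnfsf14, and their markers differed between the arrays too. All 10 macrophage and monocyte markers were measured, 5 at least 2-fold higher and 1, Mrc1, 2.10-fold lower, and their summed signal relative to the 75th percentile was 27.2 with the wild-type label and 50.5 with the knockout label. Of 8 dendritic and Langerhans cell markers 6 were measured, with sums of 5.51 and 11.4. Of these Itgax, H2-Aa and Ciita were at least 2-fold higher and Cd207, the Langerhans cell marker, was 3.15-fold lower, while Zbtb46 and Xcr1 were not above background on either array. The part of these cells in the TNF and lymphotoxin values was not tested. In such bulk RNA a difference in the number of cells of a type and a difference in RNA per cell cannot be told apart.

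Sequences upstream of 4 members are shown because they carry the contrasts above: Tnf and Ltb, neighbours with small positive values, Tnfsf14, with the bound, and Edar, the member with the greatest difference. Each is the 250 bases before the gene's start in RefSeq on GRCm38.p6, 5′ to 3′ on the gene's strand. Capitals mark matches to an NF-kappaB motif (GGGA, any 4 bases, then CC, both strands), an AP-1 motif (TGANTCA, both strands) or a TATA motif (TATAAA, the gene's strand), and no matches overlap in these sequences.
Tnf, chr17:35202008-35202257, minus strand: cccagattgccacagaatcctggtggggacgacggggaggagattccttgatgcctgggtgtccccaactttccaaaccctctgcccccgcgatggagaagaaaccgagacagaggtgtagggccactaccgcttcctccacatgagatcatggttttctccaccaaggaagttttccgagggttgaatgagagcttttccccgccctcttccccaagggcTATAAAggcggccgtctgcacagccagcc
Ltb, chr17:35194257-35194506, plus strand: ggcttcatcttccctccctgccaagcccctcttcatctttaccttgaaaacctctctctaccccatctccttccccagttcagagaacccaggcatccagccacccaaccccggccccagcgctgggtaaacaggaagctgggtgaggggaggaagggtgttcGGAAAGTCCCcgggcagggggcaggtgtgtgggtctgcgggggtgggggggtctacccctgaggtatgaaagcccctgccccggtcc
Tnfsf14, chr17:57194182-57194431, minus strand: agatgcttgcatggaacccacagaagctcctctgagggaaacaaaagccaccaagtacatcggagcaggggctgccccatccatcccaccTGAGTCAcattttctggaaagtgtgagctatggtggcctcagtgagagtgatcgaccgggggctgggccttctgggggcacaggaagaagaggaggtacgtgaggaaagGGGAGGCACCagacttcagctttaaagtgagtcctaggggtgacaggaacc
Edar, chr10:58675697-58675946, minus strand: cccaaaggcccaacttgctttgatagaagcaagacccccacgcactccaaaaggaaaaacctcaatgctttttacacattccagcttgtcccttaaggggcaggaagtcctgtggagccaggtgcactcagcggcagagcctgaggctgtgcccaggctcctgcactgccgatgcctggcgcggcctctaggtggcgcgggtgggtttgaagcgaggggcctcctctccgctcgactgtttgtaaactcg

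In these windows Tnf held the TATA motif from 29 to 24 bases before its start and Ltb an NF-kappaB motif from 87 to 78 bases before it. Tnfsf14 held an AP-1 motif (160 to 154 bases) and an NF-kappaB motif (51 to 42 bases), and the Edar window held no match to these letters. RefSeq windows matched 31 of the 42 members by symbol, 34 windows in all. The NF-kappaB motif was in 9 of the 34 (26.5%) and in 17.6% of all 32851 windows, the AP-1 motif in 4 (11.8%) and in 6.75%, and the TATA motif in 5 (14.7%) and in 7.59%. A match is a description of letters and not of a bound site.

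**Figure D2:**
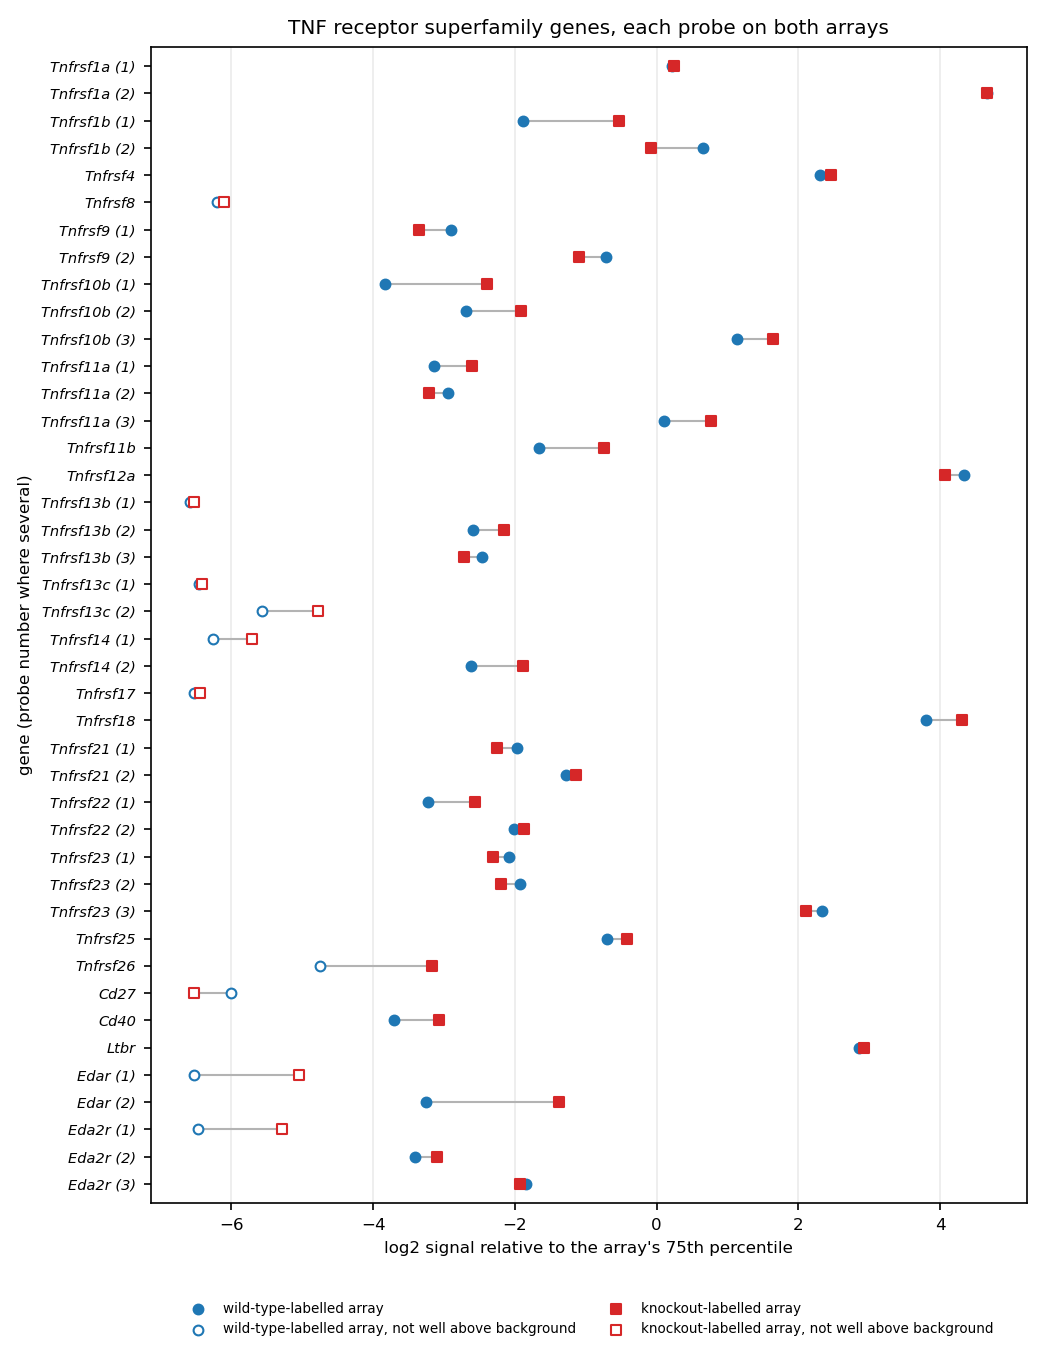
Log2 signal of each probe of the 24 receptor genes relative to the array's 75th percentile, with circles for the wild-type-labelled array, squares for the knockout-labelled array and open symbols for spots not well above background. The measured Edar probe sits higher on the knockout-labelled array, and the Tnfrsf1b probes run opposite ways.

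Ectodysplasin signalling held the greatest difference of any measured member. Edar, the receptor that guides hair placode formation, went from 36.2 units with the wild-type label to 125 units with the knockout label, 3.67-fold higher (1.88 ± 0.28, scanner error). This probe lies on the minus strand of chromosome 10 from 58063793 to 58063851 (mm9), and a second probe read 3.78 and 9.85 units, not well above background on either array. Only that second, dim probe was matched to Edar through RefSeq, and the measured probe takes its name from the array file alone. The call was lost under normexp correction (0.89) and held on the spike-in scale (1.41). Its ligand Eda read 76.6 and 78.7 units at the measured probe, a difference of 0.12 ± 0.22 (scanner error), and 2 other Eda probes were dim on both arrays. Eda2r, the other ectodysplasin receptor, differed by 0.11 ± 0.27 (SD, n = 2 measured probes). Edar was thus apart from both its ligand and the related receptor.

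Edaradd, the adaptor that Edar recruits through its death domain, was the single gene past 2-fold among 46 receptor signalling genes. It went from 30.3 to 61.5 units, 2.15-fold higher (1.11 ± 0.34, scanner error), from 1 of its 2 probes. The call was lost under normexp correction, on the spike-in scale and under a stricter filter on dim probes, which dropped it. Most hair follicle markers went the other way: of 8 looked up 7 were measured, 5 below 0 and 2 above. Of these 4 were at least 2-fold lower, Lgr5 was at least 2-fold higher, and Hoxc13 was 1.65-fold higher without reaching 2-fold. The summed relative signal of the 7 was 3.87 and 2.12, and Shh was not above background on either array. The part of hair follicle content in the Edar value was not tested.

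Among the costimulatory ligands, Tnfsf9 was lower on the knockout-labelled array. It encodes the ligand of the T cell receptor Tnfrsf9 (CD137). Its probe, on the plus strand of chromosome 17 from 57247062 to 57247121 (mm9), went from 206 units with the wild-type label to 85.6 units with the knockout label, 2.27-fold lower (-1.18 ± 0.21, scanner error). The call was lost under normexp correction, at -0.80. Tnfrsf9 read 211 and 46.4 units at its probes on the wild-type-labelled array and 152 and 31.8 on the other, a difference of -0.42 ± 0.05 (SD, n = 2 probes). Ligand and receptor thus both read lower, under each of 8 alternatives, though Tnfrsf9 did not pass 2-fold in any.

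Other costimulatory receptors were measured while their ligands were not. Tnfrsf18 (GITR), abundant on regulatory T cells, read 4817 and 6475 units, a difference of 0.51 ± 0.20 (scanner error), and Tnfrsf4 (OX40) read 1709 and 1796 units, a difference of 0.16 ± 0.20. The ligands Tnfsf18 and Tnfsf4 were not well above background on either array. Cd40, the receptor through which T cells activate antigen-presenting cells, read 26.7 and 38.7 units (0.62 ± 0.33, scanner error), and its ligand Cd40lg read 3.56 and 3.55 units, not above background. The pair of Cd27 and Cd70 was not above background on either side. Tnfrsf25, a death domain receptor of T cells, read 214 and 246 units (0.29 ± 0.21, scanner error). Its ligand Tnfsf15 cleared background only with the wild-type label (20.7 against 15.8 units), a bound of at least 1.12-fold. Tnfsf8 read 68.5 and 71.1 units at its measured probe (0.14 ± 0.23, scanner error), and its receptor Tnfrsf8 was not above background.

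T cell markers moved both ways. Of 9 on the arrays 8 were measured, 4 above 0 and 4 below, with summed relative signals of 7.54 and 8.06. Cd2 was 2.44-fold lower, Cd8b1 was 1.67-fold higher without reaching 2-fold, Cd3e differed by 0.00, and Cd8a cleared background only with the knockout label. Of 4 regulatory T cell markers 3 were measured, with sums of 0.888 and 0.650, and Ctla4 cleared it only with the wild-type label. Their part in the Tnfrsf4, Tnfrsf9 and Tnfrsf18 values was not tested.

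**Figure D3:**
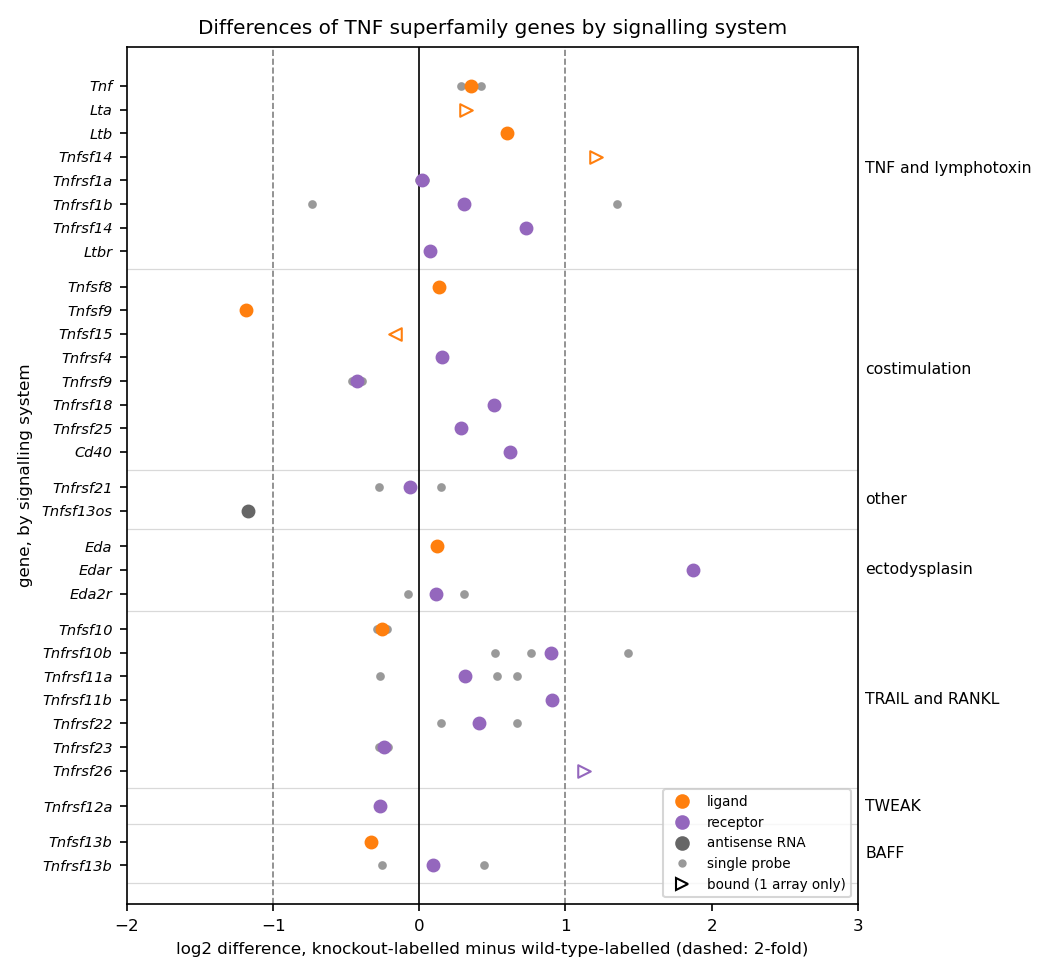
Log2 difference between the arrays for the 31 members with a value or a bound, by signalling system, with ligands in orange, receptors in purple, Tnfsf13os in dark grey, single measured probes as small points and bounds as open triangles that point away from 0. Dashed lines mark 2-fold, and among measured genes Edar lies beyond the right line and Tnfsf9 and Tnfsf13os beyond the left.

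Receptors of TRAIL, the death-inducing ligand encoded by Tnfsf10, showed unequal values. Tnfsf10 read 126 and 45.1 units at its probes on the wild-type-labelled array and 102 and 34.8 on the other, a difference of -0.26 ± 0.05 (SD, n = 2 probes). Tnfrsf10b, the mouse death receptor for TRAIL, was higher at each of 3 probes, from 759 to 1023 units, from 53.9 to 86.4 and from 24.5 to 62.2. The size of its difference varied from 0.52 to 1.43 between probes, with a mean of 0.90 ± 0.47 (SD, n = 3 probes) that did not reach 2-fold. Tnfrsf11b, or osteoprotegerin, a soluble decoy for RANKL and TRAIL, read 110 and 194 units, a difference of 0.91 ± 0.22 (scanner error). Tnfsf10, Tnfrsf10b and Tnfrsf11b kept their sign under all 8 alternatives.

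The decoy receptors Tnfrsf22 and Tnfrsf23, which bind TRAIL without a death domain, and their relative Tnfrsf26 lie together on chromosome 7, with probes within 71.9 kb. Tnfrsf23 was slightly lower at each of 3 probes, -0.24 ± 0.03 (SD, n = 3 probes). Tnfrsf22 differed by 0.41 ± 0.37 (SD, n = 2 probes). Tnfrsf26 read 12.9 units, not well above background, and 36.3 units, at least 2.18-fold higher, and the bound came to 0.36 (log2) under normexp correction and 0.65 on the spike-in scale. These genes are close paralogues, so their probes could share signal. Tnfrsf11a, the RANK receptor, differed by 0.31 ± 0.50 (SD, n = 3 probes), with 1 probe below 0, and its ligand Tnfsf11 was not well above background at either probe on either array.

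The remaining systems gave small values or none. Tnfrsf12a (Fn14), the TWEAK receptor of injured epithelium and stroma, read 6985 and 5460 units, a difference of -0.27 ± 0.20 (scanner error), and its ligand Tnfsf12 was not above background. Tnfsf13b (BAFF), a survival factor of B cells, was measured at 1 of 3 probes, at 28.5 and 21.4 units (-0.33 ± 0.36, scanner error). At its other probes it cleared background only with the knockout label, with bounds of at least 1.91-fold and 1.29-fold, so the probes disagree and the sign turned to 0.36 with no filter on dim probes. Of the BAFF receptors, Tnfrsf13b (TACI) differed by 0.10 ± 0.49 (SD, n = 2 measured probes), and Tnfrsf13c and Tnfrsf17 were not above background. Tnfrsf21, a death domain receptor, differed by -0.06 ± 0.30 (SD, n = 2 probes).

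Fasl, the death ligand of cytotoxic lymphocytes, was not above background on either array (7.64 and 4.25 units). Its receptor Fas, outside the member rule, was measured at 2 probes that ran opposite ways, from 2071 to 1454 units and from 169 to 424 units, a mean of 0.49 ± 1.30 (SD, n = 2 probes). Another Fas probe cleared background only with the knockout label (14.25 and 33.6 units). The low-affinity neurotrophin receptor Ngfr, also of the receptor superfamily, read 402 and 195 units (-0.96 ± 0.21, scanner error), and Relt differed by -0.01 ± 0.11 (SD, n = 2 probes). Tnfrsf19, which the rule leaves out, was 2.88-fold lower (-1.53 ± 0.11, SD, n = 2 probes), the 1 of these 4 receptors past 2-fold. NK and cytotoxic cell markers had summed relative signals of 1.78 and 0.969 over the 5 of 8 measured. Gzma was 2.83-fold and Gzmb 6.15-fold lower, Prf1 was 1.83-fold and Klrd1 1.33-fold higher without reaching 2-fold, and Klrb1c, Ncr1 and Eomes were not above background.

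The genes that carry the signal inside the cell were all measured, and few passed 2-fold. Of 46 receptor signalling genes, Edaradd alone was at least 2-fold higher and 0 were at least 2-fold lower. The share called was 2.17%, beside 9.86% of all genes, and the median difference was -0.06, the same as over all measured genes. Many of these genes are means over several probes, and the shares were not matched for the number or brightness of probes. On the spike-in scale 0 were higher and 4 lower (8.70%), beside 1.59% higher and 16.1% lower of all genes. The gene with the lowest value was Ripk3, the kinase of necroptosis, which read 1670 and 831 units (-0.92 ± 0.20, scanner error). Next came Bcl3, a nuclear partner of NF-kappaB, at 5437 and 2719 units at its measured probe (-0.91 ± 0.20, scanner error). Tnfaip3 (-0.55), a brake on NF-kappaB, and Nfkbia (-0.49), its cytoplasmic inhibitor, read lower too, while Cyld, a deubiquitinase that restrains TRAF signalling, differed by 0.75 ± 0.67 (SD, n = 4 probes). The adaptors Tradd (0.00) and Traf3 (0.04) and the caspase Casp8 (-0.03) lay near 0. These genes were singled out after their values were seen, apart from Edaradd.

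Setting ligands beside their receptors, 27 textbook pairs joined 2 members, and both partners were measured in 11. In 6 pairs, with 5 ligands, the receptor was measured and the ligand was not above background on either array: Cd40lg, Tnfsf4, Tnfsf11, Tnfsf12 and Tnfsf18. Of these 11, 7 had both values on the same side of 0 and 4 did not, and on the spike-in scale the counts were also 7 and 4, though not over the same pairs. The pairs are not independent, since Tnfsf10, Tnf and Eda each stand in more than 1. With 19 of the 27 measured members above 0, many pairs share a side whatever the pairing. Edar stood at 1.88 beside Eda at 0.12, and Tnfrsf10b at 0.90 beside Tnfsf10 at -0.26. Tnfrsf9 at -0.42 beside Tnfsf9 at -1.18, and Tnfrsf23 at -0.24 beside Tnfsf10 at -0.26, were both below 0.

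Many members lie in clusters, where some neighbours lay on the same side of 0 and others did not. Probes of Tnf, Lta and Ltb fall within 7.24 kb of chromosome 17 and all 3 genes read higher on the knockout-labelled array, though on the spike-in scale Tnf and the bound of Lta fell below 0. Probes of Tnfsf9, Cd70 and Tnfsf14 fall within 82.2 kb of the same chromosome. There Tnfsf9 was 2.27-fold lower, Tnfsf14 at least 2.31-fold higher, and Cd70 was not above background. Probes of Tnfrsf1a, Ltbr and Cd27 fall within 129 kb of chromosome 6, with values of 0.02 and 0.07 and Cd27 not above background. Probes of Tnfrsf18, Tnfrsf4 and Tnfrsf14 fall within 1107 kb of chromosome 4, with values of 0.51, 0.16 and 0.73, of which Tnfrsf4 came to -0.31 on the spike-in scale. Probes of Tnfrsf25 and Tnfrsf9 fall within 1175 kb of that chromosome, with values of 0.29 and -0.42. The probe of Tnfsf13os lies within 4.12 kb of that of Tnfsf12, on the plus strand of chromosome 11 from 69504584 to 69504643 (mm9). Tnfsf13os went from 190 to 79.8 units, 2.25-fold lower (-1.17 ± 0.22, scanner error), and -0.73 under normexp correction, which ends the call. Tnfsf12, on the other strand, was not above background on either array (6.60 and 14.2 units).

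**Figure D4:**
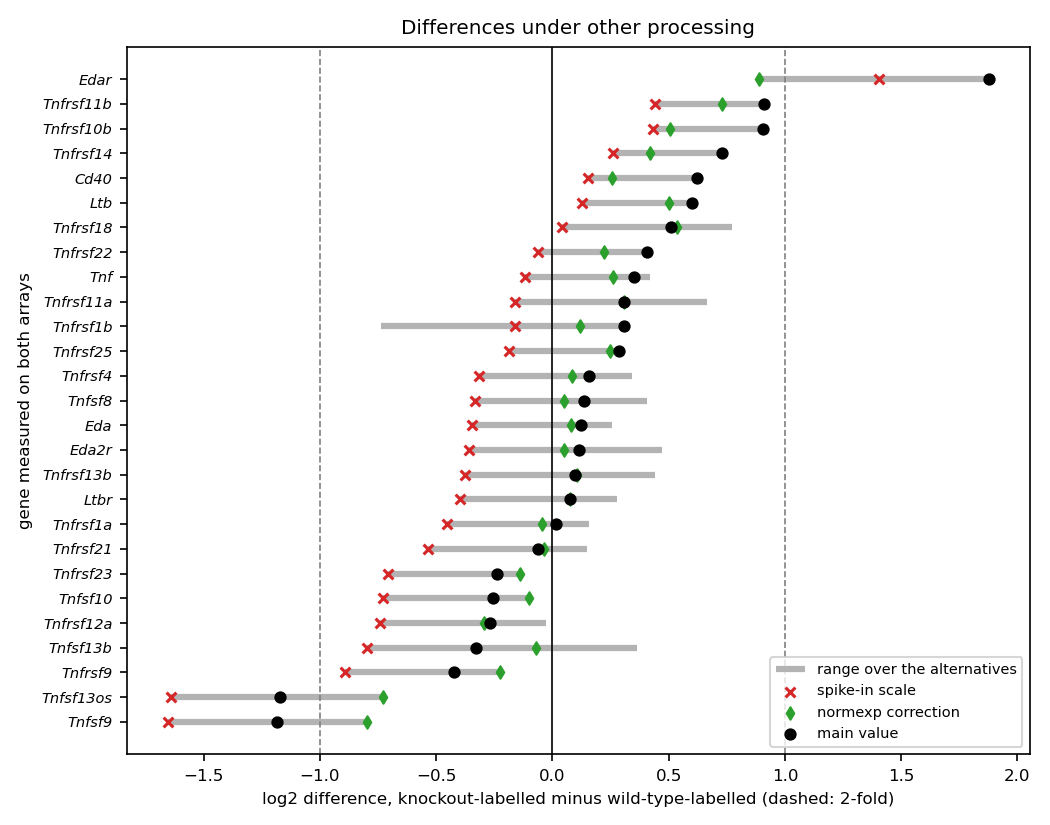
Log2 difference of the 27 measured members on the main scale (black), on the spike-in scale (red crosses), under normexp background correction (green diamonds) and as the range over the alternatives (grey bars), with dashed lines at 2-fold. Edar, Tnfsf9 and Tnfsf13os keep their side of 0 and fall inside 2-fold only under normexp correction, while many members near 0 change sign on the spike-in scale.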

How the data were processed

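Gene expression was measured in 2 tumour RNA samples, 1 per genotype, each on 1 single-colour array with 0.2 µg of RNA labelled. The authors deposited spot intensity values made with Agilent Feature Extraction 10.7.1.1, per the submitters' processing notes. Per the file headers, this intensity is background-subtracted and spatially detrended, and arrays were not normalized to each other. The authors also deposited a log2 table of the same arrays. Across probes its columns gave r = 0.9999 and 0.9997 against log2 signal, each with a median of 4.96, and sorted they differed by at most 0.00104. Its direction matches the arrays. The columns have nearly the same distribution, as quantile normalization would leave, though the normalization method was not stated.

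Outlier spots (102 and 105) were left out, spots averaged per probe, and the 75th percentile over non-control probes subtracted. A gene's value is the mean over probes well above background on both arrays, called at 2-fold; bounds use, on the dim array, the higher of its lowest signal well above background and the probe's own. Names came from the array files, updated for 1535 probes through RefSeq accessions (GRCm38.p6, 32994 probes matched); all 57 matched member probes kept their name. The rule named every member and set probe values for those past 2-fold, by difference or bound, and for their partners. Probe values of other members, among them Tnf, Tnfrsf1a and Tnfrsf10b, were given outside that rule. Members, lists and tests were chosen with earlier results of these data known. Values of 1 marker list are not reported here. Alternatives covered background correction, scaling, filters, probe choice and the deposited table. Simulated arrays of 19872 genes, with only single-spot noise (SD 0.12), gave back all 50 genes changed at each log2 size of 1.5, -1.5, 2.5 and -2.5. The 0.38 SD between probes of a gene and sizes nearer the 2-fold threshold were not simulated, so calls near it were not checked. Python 3.11.15, pandas 2.3.3 and limma 3.58.1 (R 4.3.3) were used, with a normexp offset of 50 and a loess span of 0.3.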

Additional observations from a re-analysis of the deposited data

How the results depend on the processing

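Over 234 values of members under the alternatives, 7 fell below 2-fold, and 40, these 7 among them, moved by more than the 0.38 SD between probes. The 7 were differences of Edar, Tnfsf9 and Tnfsf13os under normexp correction, and bounds of Tnfsf14 and Tnfrsf26 there and on the spike-in scale. Every value on the spike-in scale is among the 40, since its fixed shift of 0.47 exceeds that SD. Only Edar, Tnfsf9 and Tnfsf13os had a call that could turn sign, and 0 did. Of the 27 measured members 13 kept their sign under every alternative run, and 8 more under all but the spike-in scale. On the spike-in scale the medians were -0.35 (ligands), -0.18 (receptors), -0.53 (receptor signalling genes) and -0.53 (all genes), with 0 signalling genes higher and 4 lower, and 315 of all genes higher and 3198 lower. Under normexp correction 0 ligands were lower, 0 receptors and 0 signalling genes higher, the receptor median was 0.12, and 368 of all genes were higher and 578 lower. With no filter on dim probes 2 of 17 ligands and 2 of 24 receptors were higher and the ligand median was 0.26. Of the 37321 genes then counted, 2244 were higher (6.01%) and 2135 lower (5.72%). By the brightest probe the receptor median was 0.16, and the stricter filter left 0 signalling genes higher. The bound of Lta came to -0.15 (log2) on the spike-in scale, which leaves no fold. For settings other than filters and scale the cause was not tested. No paired analysis was possible because each group has 1 sample. Signals near background limit Cd40, Lta, Tnfsf13b, Tnfsf14, Tnfsf15 and Tnfrsf26, and the stricter filter on dim probes dropped Cd40 and Tnfsf13b.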

Other observations

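Of 12 members with several measured probes 6 had probes on both sides of 0, beside 36.3% of all 6731 genes with several measured probes. They were Tnfrsf1a, Tnfrsf1b, Tnfrsf11a, Tnfrsf13b, Tnfrsf21 and Eda2r, and for Tnfrsf1a the probes stood at 0.036 and -0.0035, a gap within the 0.12 SD of a single spot. Tnfrsf9, Tnfrsf10b, Tnfrsf22, Tnfrsf23, Tnf and Tnfsf10 had all measured probes on 1 side.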
